A study of Homo sapiens with 4 samples.

Results

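Expression of the APP family and of the secretases that cut it was measured in MDA-MB-231 cells with and without knockdown of the receptor tyrosine kinase AXL. The 9 genes, of 63677 in the table, were chosen by symbol: APLP2, APP and APLP1, which encode the precursor proteins, BACE1 and BACE2, which encode beta-secretases, and NCSTN, APH1A, PSENEN and PSEN2, which encode subunits of the gamma-secretase. APLP2 was picked for its rise in these libraries, so its values are described and carry no test. Where a symbol had several rows, the row with the highest mean was used, which applied to APH1A, whose other row was at 0 in all 4 libraries. All 9 genes passed the filter on low counts.

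MDA-MB-231 is an established human triple-negative breast cancer line of mesenchymal character. The control group, siCt, had 2 libraries from cells given a control siRNA, and the siAXL group had 2 libraries from cells given an ON-TARGET Smart Pool of siRNAs to AXL. Both were transfected with Lipofectamine 2000, and the time from transfection to harvest is not given in the sources used here. The labels do not say that the 2 libraries of a group came from separate cultures, so p-values measure only the spread between these libraries, which may be technical. The pool was compared with 1 control, and no single siRNA or rescue was analysed here.

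The APP family consists of single-pass membrane proteins with a large extracellular part. An alpha-secretase of the ADAM family or the beta-secretase BACE1 removes that part, and the gamma-secretase, a complex of a presenilin, nicastrin, APH-1 and PEN-2, then cuts the remaining stub within the membrane. For APP, cutting by BACE1 and gamma-secretase gives amyloid beta, best known from the brain, while the family is also expressed widely outside it, in tumour cells among others.

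The libraries held between 39574387 and 44585773 reads assigned to genes. AXL itself had 29189 and 30617 normalized counts (reads divided by the size factor of the library) in siCt and 8658 and 7141 in siAXL, a log2 fold change of -1.93 (limma, adjusted p = 0.000585). The mesenchymal markers VIM and CD44 were abundant, the lowest values being 86751 and 33968 normalized counts, and the hormone receptors ESR1 and PGR did not exceed 3.25 and 1.94. CDH1, the epithelial cadherin, was low, at 90.1 and 94.3 normalized counts in siCt and 36.9 and 22.6 in siAXL (limma, adjusted p = 0.00847). Of the markers of other cell types, the neuronal gene RBFOX3 and the endothelial gene PECAM1 were at 0 in all 4 libraries and were not tested. SYP, SNAP25, PTPRC and ACTA2 stayed under 100 normalized counts, GFAP lay between 133 and 200 and EPCAM between 565 and 771. None of these tested markers passed. EPCAM came nearest, with both siAXL libraries above both siCt libraries (limma, adjusted p = 0.0513). In bulk RNA of this kind, fewer cells of a type and less RNA per cell cannot be told apart.

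APLP2 (ENSG00000084234), the most widely expressed relative of APP, had 19187 and 18291 normalized counts in siCt and 40727 and 42609 in siAXL. The siCt mean of 18739 ± 634 (SD, n = 2) compared with a siAXL mean of 41668 ± 1330 (SD, n = 2), a ratio of 2.22. Both siAXL libraries lay above both siCt libraries, and the gap between the groups was many times the gap within either group. The log2 fold change, on the scale of log2(normalized count + 1), was 1.15 (SE 0.0594, 95% interval 1.01 to 1.29). This interval does not allow for the choice of APLP2 by its rise and is no test. Ranked by log2 fold change among the 12088 tested genes with a mean of at least 100 normalized counts, APLP2 was number 28, with PPFIA4 at 1.17 just above it and MLEC at 1.15 just below.

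APP (ENSG00000142192), the precursor of amyloid beta, had 24875 and 24855 normalized counts in siCt and 36866 and 38370 in siAXL. The groups did not overlap, and the siCt libraries were almost equal. APP rose by 0.60 on the log2 scale (SE 0.0563, 95% interval 0.46 to 0.73, limma, adjusted p = 0.0021), a ratio of means of 1.51. APLP1 (ENSG00000105290), the member of the family best known from neurons, was scarce, with 128 and 122 normalized counts in siCt and 200 and 159 in siAXL. Both siAXL libraries of APLP1 were above both siCt libraries, but they differed from each other by more than the gap to siCt, and the log2 fold change of 0.51 (SE 0.154, 95% interval 0.14 to 0.87) did not pass the test (limma, adjusted p = 0.0621). Without siCt replicate 1 it did (log2 fold change 0.54, limma, adjusted p = 0.0322), a fit that, like each one with a library left out, assumes that the lone library of a group varies like the other group.

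**Figure D1:**
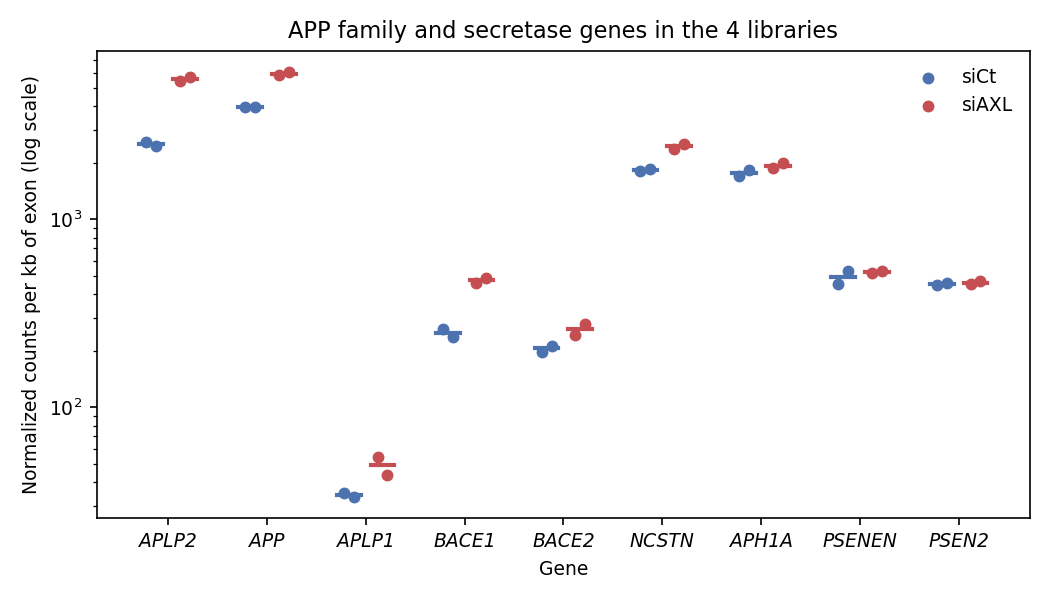
Normalized counts per kilobase of exon (log axis) of the 9 genes in each library. Points are libraries, blue for siCt and red for siAXL, and the horizontal lines are means of 2 libraries. The siAXL points of APLP2, APP, APLP1, BACE1, BACE2, NCSTN and APH1A lie above the siCt points, and those of PSEN2 and PSENEN overlap them. APLP1 and APH1A did not pass the test.

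Levels of different genes were compared per kilobase of exon, the length being that of all annotated exons merged. Not all of these exons need be used in these cells. Per kilobase, APP was the highest of the 9 genes and APLP2 came next in both groups. By normalized counts APLP2 was above APP in both siAXL libraries (40727 and 42609 against 36866 and 38370), so this order depends on the lengths. The per-kilobase difference between APLP2 and APP was smaller in siAXL. APLP2 stood at 2511 normalized counts per kilobase against 3937 for APP in siCt, and at 5583 against 5956 in siAXL. The ratio of APLP2 to APP per kilobase was 0.653 and 0.623 in the siCt libraries and 0.935 and 0.940 in the siAXL libraries, without overlap. APLP2 made up 39.3% and 38.2% of the summed level of the 3 precursor genes per kilobase in siCt and 48.1% and 48.3% in siAXL. The 3 genes together took 0.104% and 0.101% of all reads in siCt and 0.180% and 0.185% in siAXL. Ranked by reads among all genes, APLP2 moved from places 268 and 311 to places 77 and 74, and APP from places 171 and 182 to places 90 and 94. As the rise of APLP2 chose it, these ratios are a description.

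The 3′ UTRs of APLP2 and APP share a 7-base word, CACATCA, which is shown because earlier results of these data had drawn attention to it in genes that were higher in siAXL. The windows below hold 11 bases on either side of the word, in capitals, and give the RNA strand as DNA letters, 5′ to 3′, read from the GRCh38 genome with the GENCODE 29 annotation. The APLP2 site lies at chr11:130144769-130144797 on the plus strand, with the word starting 1332 bases after the stop codon in a 3′ UTR of 1363 bases. The APP site lies at chr21:25881478-25881506 on the minus strand, 175 bases after the stop codon in a 3′ UTR of 1120 bases.
APLP2: cacagtttaaaCACATCAataaatacttt
APP: gaattaatccaCACATCAgtaatgtattc

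The APLP2 copy sits near the end of its UTR and the APP copy near the start. The other 7 genes did not hold the word in their longest annotated 3′ UTR. Its last 6 bases, ACATCA, had 1 copy in the 4359 bases of the BACE1 UTR and 2 copies in the 6894 bases of that of BACE2. Longer UTRs hold more copies of so short a word by length alone, and the share of all genes with ACATCA is not given. Among 12985 tested genes with an annotated 3′ UTR, 1506 (11.6%) held CACATCA. The part of the word in the values of APLP2 and APP was not tested, and since these data drew attention to it, no comparison of genes with and without it is given.

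The beta-secretases both rose, and their 95% intervals did not overlap, although the difference between them was not tested. BACE1 (ENSG00000186318), the enzyme that makes the first cut towards amyloid beta, had 1869 and 1699 normalized counts in siCt and 3309 and 3517 in siAXL. The groups stood far apart, and BACE1 rose by 0.94 on the log2 scale (SE 0.0705, 95% interval 0.77 to 1.10, limma, adjusted p = 0.00136), a ratio of means of 1.91. That placed it at number 73 in the ranking in which APLP2 was number 28, APP 363 and NCSTN 835. BACE2 (ENSG00000182240), a close relative that cuts APP mainly within the amyloid beta stretch, had 1902 and 2050 normalized counts in siCt and 2317 and 2677 in siAXL. The siAXL libraries of BACE2 were higher without overlap but apart from each other, and BACE2 rose by 0.33 (SE 0.0840, 95% interval 0.14 to 0.53, limma, adjusted p = 0.0348). Without siAXL replicate 2 this call was lost (log2 fold change 0.23, limma, adjusted p = 0.158), and likewise when every gene with at least 1 read was tested (limma, adjusted p = 0.114).

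Per kilobase of exon, BACE1 was above BACE2 in every library, by a ratio of 1.31 and 1.11 in siCt and 1.91 and 1.76 in siAXL. By normalized counts BACE2 was above BACE1 in both siCt libraries (1902 and 2050 against 1869 and 1699). Their order in siCt therefore depends on the exon lengths used. Genes on the other strand may affect the BACE1 count, since no source used here states whether strand was used in counting. The exons of BACE1 overlap 1239 bases of RNF214 and 1872 bases of the antisense RNA BACE1-AS. RNF214 had a log2 fold change of -0.24 (limma, adjusted p = 0.0672), opposite in sign to BACE1, at a mean of 1665 reads per library against 2626 for BACE1. BACE1-AS had no entry under its Ensembl identifier among the counted genes, and the values of RNF214 do not bear on it. Whether reads of BACE1-AS were counted for BACE1 was not tested.

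Of the 4 gamma-secretase subunits in the set, NCSTN passed the test and APH1A, PSENEN and PSEN2 did not. NCSTN (ENSG00000162736), which encodes nicastrin, the large glycoprotein of the complex, had 7547 and 7733 normalized counts in siCt and 9926 and 10531 in siAXL. The groups were well apart, and NCSTN rose by 0.42 on the log2 scale (SE 0.0564, 95% interval 0.29 to 0.55, limma, adjusted p = 0.00501). Its exons share 129 bases with COPA, which had a mean of 12350 reads per library against 8986 for NCSTN and a log2 fold change of 0.18 (limma, adjusted p = 0.0550).

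APH1A (ENSG00000117362), a scaffold subunit, had 5932 and 6371 normalized counts in siCt and 6506 and 6907 in siAXL. The siAXL libraries were higher by a margin smaller than the gap within either group, and the log2 fold change of 0.12 (95% interval -0.022 to 0.27) did not pass the test (limma, adjusted p = 0.208). PSENEN (ENSG00000205155), which encodes PEN-2, had 836 and 978 normalized counts in siCt and 955 and 978 in siAXL, with overlap (log2 fold change 0.095, 95% interval -0.12 to 0.31, limma, adjusted p = 0.519). PSEN2 (ENSG00000143801), the gene of presenilin 2, a catalytic subunit, had 1685 and 1728 normalized counts in siCt and 1691 and 1754 in siAXL. Its groups overlapped and its log2 fold change was 0.013 (95% interval -0.13 to 0.16, limma, adjusted p = 0.903). The NCSTN estimate of 0.42 lay outside the intervals of PSEN2, PSENEN and APH1A. However, the interval of NCSTN (0.29 to 0.55) overlapped that of PSENEN, and differences between the subunits were not tested. The sign of the PSEN2 value turned with scaling by library size (-0.016). PSENEN shares 332 exon bases with U2AF1L4, which had a mean of 259 reads per library against 938 for PSENEN.

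**Figure D2:**
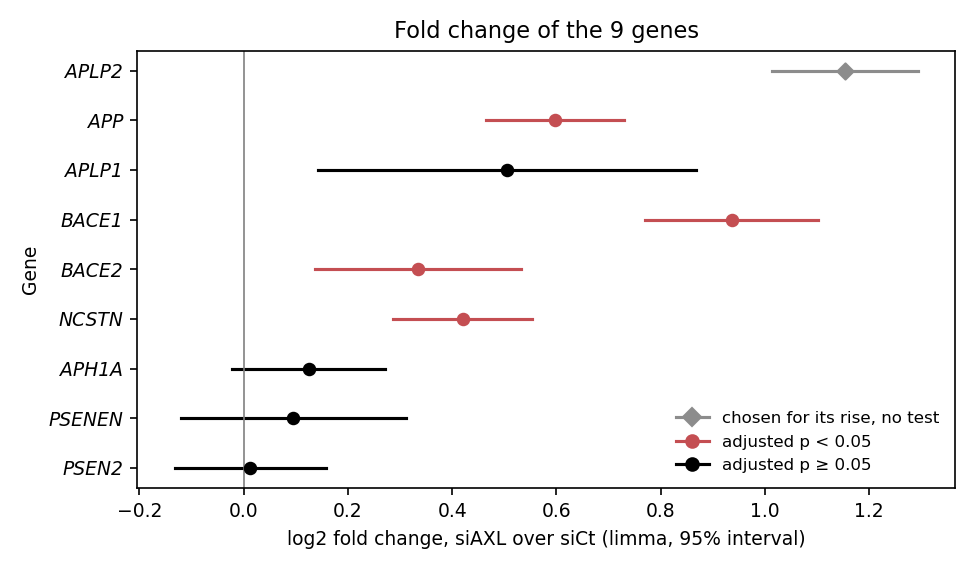
Log2 fold change (siAXL over siCt) of the 9 genes with its 95% interval from limma. Red marks genes with an adjusted p under 0.05, black the others, and grey APLP2, which was chosen for its rise and has no test. The interval of APLP2 does not allow for that choice. APP, BACE1, BACE2 and NCSTN are red, and the intervals of APH1A, PSENEN and PSEN2 cross 0.

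Of the 8 genes other than APLP2, 4 rose (APP, BACE1, BACE2 and NCSTN), 0 fell and 4 did not pass the test. All 8 log2 fold changes were above 0, beside 49.7% of those of all 16064 genes tested. PSEN2 and PSENEN did not stay above 0 in every alternative setting. In the main limma fit the median was 0.38 for the 8 genes, against -0.0022 over all genes tested. In the same fit 18.7% of all genes tested were called, 10.8% higher in siAXL and 7.91% lower, so that 4 of 8 called higher compares with 10.8%. Scaled by library size alone, 46.8% of all calls were higher in place of 57.7%. Of the 8 genes, 6 had both siAXL libraries above both siCt libraries, against 30.6% of all genes tested. APP, BACE1 and NCSTN stayed called in all 13 alternative settings, their largest adjusted p being 0.0250 for APP, 0.0250 for BACE1 and 0.0316 for NCSTN (limma, edgeR or DESeq2). The 8 genes were proposed with results of these data known, so their count is a description.

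In order of level per kilobase, which rests on the merged exon lengths, APP and APLP2 in siCt were followed by NCSTN (1830) and APH1A (1771), whose libraries overlapped. Next came PSENEN (492) and PSEN2 (455), which overlapped too, then BACE1 (248), BACE2 (205) and APLP1 (34.3). In siAXL the order was the same down to PSENEN (524), with NCSTN (2450) now above APH1A (1931) without overlap. BACE1 (475) there reached PSEN2 (459), with overlapping libraries, ahead of BACE2 (260) and APLP1 (49.1).

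The promoters of APLP2, BACE1 and APP are printed because these genes had the largest log2 fold changes of the set. Each window runs from 250 bases before to 50 bases after the start that RefSeq gives on GRCh38.p14, on the strand of the gene, 5′ to 3′, and GC boxes (GGGCGG on either strand) are in capitals. RefSeq lists 2 promoters for APP and 3 for BACE1, and the counts below hold for 1 of each, the one with most GENCODE transcript starts within 100 bases of its start. The APLP2 window is chr11:130070318-130070617 (plus strand), that of APP chr21:26170721-26171020 (minus strand) and that of BACE1 chr11:117316207-117316506 (minus strand).
APLP2: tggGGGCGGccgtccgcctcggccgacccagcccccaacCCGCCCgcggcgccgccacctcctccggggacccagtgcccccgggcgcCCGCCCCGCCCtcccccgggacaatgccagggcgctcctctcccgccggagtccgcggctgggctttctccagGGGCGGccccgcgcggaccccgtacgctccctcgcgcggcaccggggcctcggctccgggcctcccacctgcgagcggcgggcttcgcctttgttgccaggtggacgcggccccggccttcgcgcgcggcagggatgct
APP: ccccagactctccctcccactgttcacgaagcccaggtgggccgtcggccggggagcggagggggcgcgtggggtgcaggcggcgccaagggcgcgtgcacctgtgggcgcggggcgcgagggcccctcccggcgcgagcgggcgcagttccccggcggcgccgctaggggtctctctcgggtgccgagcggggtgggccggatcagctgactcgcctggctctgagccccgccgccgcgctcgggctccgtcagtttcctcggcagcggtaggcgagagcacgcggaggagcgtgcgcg
BACE1: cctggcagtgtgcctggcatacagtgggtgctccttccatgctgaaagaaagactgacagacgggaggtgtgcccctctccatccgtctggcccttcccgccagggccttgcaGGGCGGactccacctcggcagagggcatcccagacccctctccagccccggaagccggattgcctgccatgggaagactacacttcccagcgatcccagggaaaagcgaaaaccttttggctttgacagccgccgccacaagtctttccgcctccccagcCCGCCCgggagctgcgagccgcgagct

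All 3 windows are rich in G and C, at 80.7% for APLP2, 77.3% for APP and 64.3% for BACE1, against a median of 58.7% over 35116 promoters of the same length. They differ in GC boxes, of which APLP2 has 5, APP has 0 and BACE1 has 2, and 45.0% of all promoters have at least 1. Among the other genes with a RefSeq entry, NCSTN, which rose, and PSENEN, which did not pass the test, have 0, while APLP1 has 7, PSEN2 has 3 and APH1A has 1. For NCSTN and APLP1, no counted GENCODE transcript start lay within 100 bases of the RefSeq start. The words CACGTG (an E-box, in 7.26% of all promoters on either strand), TGACGTCA (a cAMP response element, 1.85%) and TGANTCA (an AP-1 site, 7.71%) are in none of the 8 windows. CCAAT, in 34.6% of all promoters, is in APH1A only, in 2 copies. BACE2 had no entry and is named only.

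The 5 genes whose values over the 4 libraries were most like those of APLP2 were TCP11L2, RORA, CPM, BACH2 and MLEC, by the Euclidean distance of their log2 values after centring each gene on its mean. Among 12087 other tested genes with a mean of at least 100 normalized counts, the distance was 0.0619 for TCP11L2 and 0.0791 for RORA, and 0.0850, 0.0903 and 0.0957 for CPM, BACH2 and MLEC. Their log2 fold changes were 1.11, 1.15, 1.15, 1.09 and 1.15 in that order. CPM and BACH2 reached the minimum mean only through siAXL, since their siCt libraries held at most 94.0 and 69.0 normalized counts. Of the other 8 genes of the set, BACE1 was nearest to APLP2 with a distance of 0.222 and APP came next with 0.558, while PSEN2 was farthest at 1.14. With 2 libraries a group this distance mostly ranks genes by the size of their difference between groups.

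Of the other genes of the pathway, 59 were listed by role and 56 were tested (MME, ERBB4 and CHL1 were too low). These lists were drawn up with earlier results of these data known, so their counts and shares are a description. In siAXL 17 of the 56 rose (30.4%) and 3 fell (5.36%), with a median log2 fold change of 0.15, beside 10.8% higher and 7.91% lower over all genes. Of the 56, 36 had both siAXL libraries above both siCt libraries, beside 30.6% of all genes tested. The number called among the 56 was 20 with all libraries, 11 without siAXL replicate 1 and 11 without siAXL replicate 2. Calls of 10 genes held whichever library was left out: APH1B, ADAM17, APBB1, LRP10, ITM2B, CLSTN1, ECE1, SEZ6L2, ST6GAL1 and L1CAM. The other 10 called genes named below each lost the call without at least 1 library.

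The alpha-secretases, which cut APP and APLP2 outside the amyloid beta route, all rose. ADAM17 rose by 0.35 (limma, adjusted p = 0.00947), ADAM9 by 0.30 (limma, adjusted p = 0.0208) and ADAM10 by 0.26 (limma, adjusted p = 0.0344), beside 0.94 for BACE1, a difference that was not tested. ADAM17 kept its call in all 13 alternative settings, while ADAM9 and ADAM10 each lost theirs in 4 of them. Of the 3 other gamma-secretase genes listed, 2 rose: APH1B, the paralogue of APH1A, by 0.46 (limma, adjusted p = 0.00965), and TMED10, a trafficking protein found with the complex, by 0.25 (limma, adjusted p = 0.0328). The difference between APH1A and APH1B was not tested. Among 6 proteases that cut APP elsewhere or resemble presenilin, SPPL3 rose by 0.26 (limma, adjusted p = 0.0230) and the others did not pass. The share called higher was 100% of the alpha-secretases, 66.7% of the other gamma-secretase genes and 16.7% of these proteases. Over all genes tested it was 10.8%, and the share of the proteases was near that.

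Of 12 cytoplasmic adaptors that bind the APP tail or act with it, 2 rose: APBB1 (Fe65) by 0.50 (limma, adjusted p = 0.00437) and APBA2 (an X11 protein) by 0.34 (limma, adjusted p = 0.0291). That is 16.7% of the adaptors, near the 10.8% of all genes. Among 12 genes of sorting and endocytosis, which had a median log2 fold change of -0.074, LRP10 rose by 0.38 (limma, adjusted p = 0.00532). BIN1, a membrane-curving protein of endocytosis, fell by 0.23 (limma, adjusted p = 0.0319). That is 8.33% called in each direction, near the 10.8% higher and 7.91% lower of all genes. Of 6 membrane partners, CLSTN1, a calsyntenin cut by the same secretases, rose by 0.46 (limma, adjusted p = 0.00353), ITM2B by 0.40 (limma, adjusted p = 0.00537) and ITM2C by 0.29 (limma, adjusted p = 0.0171). SPON1 (F-spondin) fell from 13.4 and 14.1 to 4.86 and 4.91 normalized counts (limma, adjusted p = 0.0490), near the floor of 3 reads, and DESeq2 gave no adjusted p for it. Of 3 enzymes that degrade amyloid beta, ECE1 rose by 0.46 (limma, adjusted p = 0.00555). The share called higher was 50% of the membrane partners and 33.3% of these enzymes, and 16.7% of the partners were called lower.

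Among 11 other secretase substrates, 4 rose (36.4%) and 1 fell (9.09%), beside 10.8% higher and 7.91% lower over all genes tested. ST6GAL1, a sialyltransferase that BACE1 cuts, rose by 0.79 (limma, adjusted p = 0.00236), from 491 and 469 normalized counts to 824 and 835. The cell adhesion gene L1CAM rose by 0.57 (limma, adjusted p = 0.00965), SEZ6L2 by 0.40 (limma, adjusted p = 0.00837) and JAG1, a Notch ligand, by 0.22 (limma, adjusted p = 0.0350). CDH2 (N-cadherin) fell from 75.8 and 74.8 to 34.96 and 48.1 normalized counts (limma, adjusted p = 0.0357), a call that DESeq2 did not make (adjusted p = 0.0953).

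**Figure D3:**
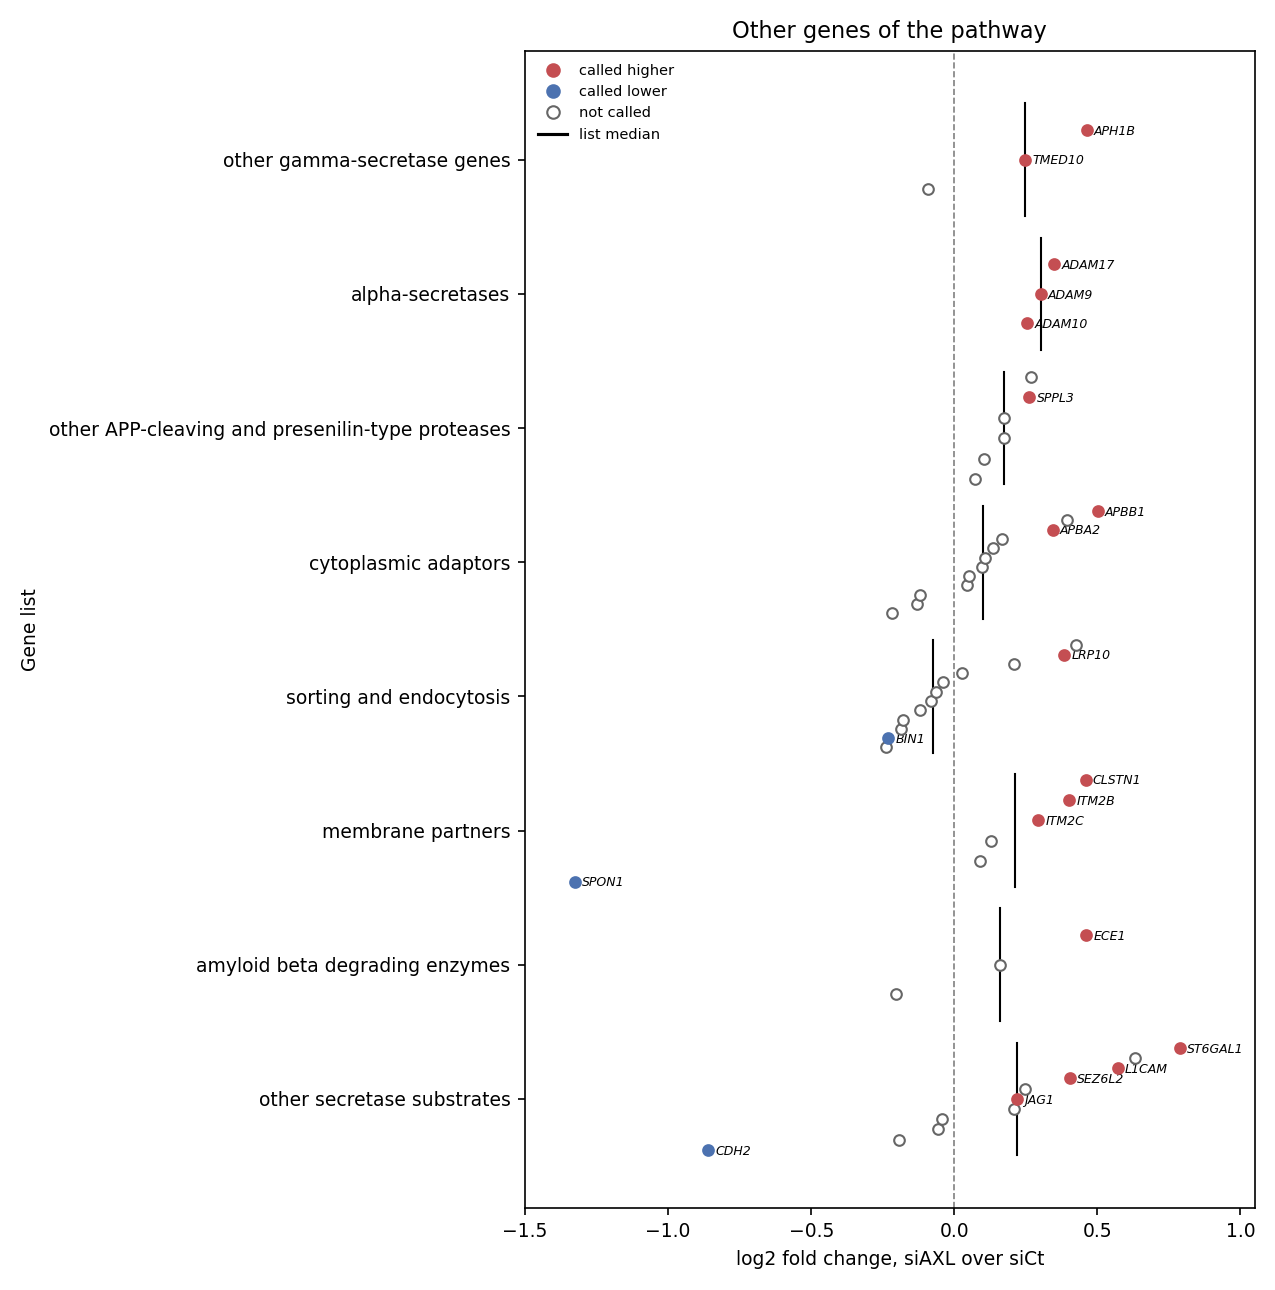
Log2 fold change (siAXL over siCt) of 56 other genes of the pathway, by list. Red points were called higher, blue lower and open points were not called (limma, adjusted p under 0.05), and vertical lines are list medians. Each list except sorting and endocytosis has its median above 0.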

How the data were processed

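RNA-seq of 4 MDA-MB-231 libraries (2 siCt, 2 siAXL) was analysed. The authors deposited 1 table of normalized counts, a signal in which the reads of each gene are divided by a size factor of the library. The submitters' processing notes name CASAVA 1.8, TopHat2 2.0.10, HTSeq 0.5.3, DESeq2 1.4.5 and GRCh37. The gene annotation and the strand setting of counting are not given in the sources used here. The 6 columns of the authors' own comparison (mean, fold change, its error, statistic and p-values) were not used.

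Dividing each column by its smallest step gave back whole reads for every value, within 0.02 of a whole number, and 39574387 to 44585773 reads per library. The floor of 3 reads and all intervals cover counting or replicate error only. Libraries of a group differed by more than sampling noise (chi-square per gene 21.6 in siCt and 19.6 in siAXL). Between same-numbered libraries of the 2 groups it was 35.6 and 42.3. Each library was counted as 1 replicate, although this spread may be technical and does not show separate cultures. The 16064 genes passing filterByExpr (edgeR 4.0.16) on these reads were tested with limma 3.58.1 (lmFit, eBayes with trend, two-sided, R 4.3.3) on log2(normalized count + 1), which understates changes of low genes, with Benjamini-Hochberg adjustment over all of them and a threshold of 0.05. An exact permutation test of 2 against 2 cannot give a p below 0.333 and was not used. Alternatives were edgeR and DESeq2 1.42.0 on the recovered reads, other scalings, pseudocounts and filters, a replicate block and each library left out. The fits were also run on simulated counts with the same dispersion for every gene, which does not show how they behave at the spread of these data.

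Exon lengths, 3′ UTRs and overlaps came from GENCODE 29 on GRCh38, another build than that of the authors. It was joined by Ensembl identifier, which matched 52526 of 63677 identifiers (82.5%) and 9 of 9 genes of the set. Coordinates are therefore those of GRCh38. RefSeq promoters (GRCh38.p14) matched 8 of 9 by symbol.

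Named genes are the 9 genes, every listed pathway gene past the threshold, the 5 genes most like APLP2, AXL and the cell type markers. RNF214, COPA and U2AF1L4, whose exons overlap those of a member, are named as well. So is BACE1-AS, which overlaps BACE1 but had no entry among the counted genes. Other counted genes with exons overlapping a member had a mean of at most 17.75 reads per library (C1orf54, which overlaps APH1A). Members, lists and sequence words were chosen with earlier results of these data known. A further gene of the pathway lists is not reported here and was left out of their counts.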

Additional observations from a re-analysis of the deposited data

How the results depend on the processing

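Of all genes tested, 3006 were called by limma, and the count was 1097 when every gene with at least 1 read was tested, 7310 with a replicate block, and 1301 to 3900 with 1 library left out (1301 without siAXL replicate 1, 1518 without siAXL replicate 2, 3900 without siCt replicate 1). The pathway count of 20 became 9, 43 and 11 to 21 under the same settings. Of the 8 genes tested in the set, between 3 and 5 were called with 1 library left out and between 3 and 6 under the others. The log2 fold change of APLP2 ranged from 1.12 to 1.19. PSEN2 turned to -0.016 with scaling by library size. With 1 library left out, PSEN2 ranged from -0.013 (without siAXL replicate 2) to 0.040, below 0 also without siCt replicate 1 (-0.0051), and PSENEN from -0.018 (without siCt replicate 1) to 0.21. Both groups carry replicate numbers 1 and 2, but with only 2 pairs the numbers do not show a pairing. Deviations of same-numbered libraries correlated at 0.271, and with the block APLP1 (limma, adjusted p = 0.00108) and APH1A (limma, adjusted p = 0.00394) were called too. The depth was enough for 113 or more reads in every library for each of the 9 genes, and 2 libraries a group limit the precision.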
